A study of Mus musculus with 60 samples.

Results

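The genes of the endocannabinoid system measured here were 8 of the 35889 genes in the libraries, chosen by symbol: the receptor gene Cnr1, the synthesis genes Dagla, Daglb and Napepld, the breakdown genes Mgll, Faah and Abhd6, and Cnrip1, which encodes a protein that binds the receptor's tail. All transcripts of each gene were summed in every library, and all 8 genes passed the filter on low counts in every fit. The libraries came from neurons of Ai14xFosiCre mice (also named Ai14:cFos-TRAP2), in which a tamoxifen-dependent Cre driven by the Fos gene switches on tdTomato in cells active around the injection. All mice of the sorted groups had self-administered cocaine and sucrose, gone through extinction and been tested for cued reinstatement of both. They received 4-hydroxytamoxifen after the cocaine test and were killed after the sucrose test. NeuN-positive cells of the nucleus accumbens (NAc) and the prefrontal cortex (mPFC) were sorted into 4 populations: tdTomato-positive (cocaine-seeking), cFos-positive (sucrose-seeking), positive for both (overlapping) and negative for both (non-ensemble). The labels name the accumbens tissue as the core, while the paper describes punches that took in mostly the lateral parts of both shell and core. Each of the 48 sorted libraries was made from a pool of 3 mice, with 3 pools per sex, so a group of 1 region, sex and population held 3 libraries. The other 12 libraries (3 for each sex in each region) carry the name naive, which neither the labels nor the paper's methods define, and their treatment label is the one of the other mice.

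The cannabinoid receptor CB1, encoded by Cnr1, is a receptor coupled to inhibitory G proteins that sits mainly on axon terminals, where it lowers transmitter release. Its ligand 2-arachidonoylglycerol (2-AG) is made in the postsynaptic cell by the diacylglycerol lipases of Dagla and Daglb and broken down by the lipases of Mgll and Abhd6, while anandamide is made in part by the phospholipase of Napepld and broken down by the hydrolase of Faah. In the striatum and the cortex this retrograde signal shapes glutamate and GABA synapses, and CB1 has long been studied in drug reward and relapse.

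The sorted libraries held 9.93e+06 to 2.45e+07 counts, and the rarest of the 8 genes, Napepld, had 56 to 216 counts in each. The sources describe pools but each library was sequenced as 1 sample, so the spread between libraries includes animals and technical steps together. The neuronal marker Rbfox3, which encodes NeuN, was present in every sorted library at 118 to 277 CPM (counts scaled to a library of fixed size). The summed level of 5 oligodendrocyte markers was 1207 to 3161 CPM and that of 6 astrocyte markers 713 to 1658 CPM. The sucrose-seeking population was sorted on cFos protein, yet of 7 activity genes 0 were called higher and 2 lower than in non-ensemble in the NAc, and Fos RNA had a median of 9.27 CPM against 12. The Y-linked gene Ddx3y was at 11.3 to 20.4 CPM in the libraries labelled female pool 2 of both regions and at most 2.01 CPM in the other female libraries. The libraries labelled mPFC held striatal RNA: Adora2a, the adenosine receptor gene of indirect-pathway projection neurons of the striatum, was at 65.1 ± 26.1 CPM (SD, n = 12) in the female mPFC and 132 ± 14.9 CPM in the female NAc. The cortical gene Slc17a7 was at 61.8 ± 27.9 CPM in the female mPFC and 236 ± 61.4 CPM in the female NAc. In males it was at 308 ± 221 CPM in the mPFC and 356 ± 146 CPM in the NAc, with the male mPFC pool 2 at 34.2 to 43.4 CPM. Region names below are therefore those of the labels.

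The promoter windows of 3 genes that were lower together in the sucrose-seeking population (Cnr1, Mgll, Cnrip1) and of 1 that was not (Faah) are shown so that their letters can be set side by side. Each window holds 250 bases before and 50 bases after an annotated start, 5′ to 3′ on the strand of the gene, from RefSeq on build GRCm38.p6. Capitals mark GC boxes (GGGCGG or its complement CCGCCC) and the core letters of the cAMP response element (TGACG or its complement CGTCA). The windows are chr4:33924014-33924313 on the plus strand for the first of 3 starts of Cnr1, chr6:88724454-88724753 on the plus strand for the second of 2 starts of Mgll, chr11:17051609-17051908 on the plus strand for Cnrip1 and chr4:116017875-116018174 on the minus strand for Faah.
Cnr1: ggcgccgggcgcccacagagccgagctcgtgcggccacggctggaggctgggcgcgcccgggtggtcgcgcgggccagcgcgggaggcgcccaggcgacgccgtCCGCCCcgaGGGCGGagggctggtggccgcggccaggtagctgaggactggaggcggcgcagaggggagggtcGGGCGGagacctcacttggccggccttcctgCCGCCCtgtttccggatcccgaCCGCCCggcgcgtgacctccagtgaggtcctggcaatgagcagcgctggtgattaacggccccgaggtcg
Mgll: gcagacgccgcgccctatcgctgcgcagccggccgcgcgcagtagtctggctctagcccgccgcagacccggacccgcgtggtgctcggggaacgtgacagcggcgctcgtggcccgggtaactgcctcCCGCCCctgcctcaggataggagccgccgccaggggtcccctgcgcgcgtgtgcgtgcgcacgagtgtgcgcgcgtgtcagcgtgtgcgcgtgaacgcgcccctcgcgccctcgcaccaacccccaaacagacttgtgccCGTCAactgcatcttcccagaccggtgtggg
Cnrip1: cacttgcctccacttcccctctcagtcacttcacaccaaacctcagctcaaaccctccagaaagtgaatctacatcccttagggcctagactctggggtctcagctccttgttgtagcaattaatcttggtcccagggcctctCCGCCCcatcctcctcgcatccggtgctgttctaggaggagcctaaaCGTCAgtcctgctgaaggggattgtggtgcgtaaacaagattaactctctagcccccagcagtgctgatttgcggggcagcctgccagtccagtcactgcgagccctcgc
Faah: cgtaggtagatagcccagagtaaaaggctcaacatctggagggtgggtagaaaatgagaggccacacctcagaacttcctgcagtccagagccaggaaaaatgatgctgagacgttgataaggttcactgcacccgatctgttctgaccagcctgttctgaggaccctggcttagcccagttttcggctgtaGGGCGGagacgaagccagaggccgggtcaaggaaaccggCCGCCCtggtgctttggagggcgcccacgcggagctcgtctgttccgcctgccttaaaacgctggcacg

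The Cnr1 window was 76.3% G and C, at percentile 97.1 of the 32851 mouse windows, and held 5 GC boxes. The Mgll window shown was 72.3% G and C with 1 GC box and 1 core, the Cnrip1 window 56% with 1 of each, and the Faah window 57.7% with 2 GC boxes. The median over all windows was 52.7%. A GC box was present in 7 of the 11 windows of 7 members and in 35.7% of all windows, and a core in 2 of 11 and in 20.8%. The full element TGACGTCA, found in 1.79% of all windows, the AP-1 letters TGACTCA (5.2%) and the TATA letters TATAAA (13.6%) were searched on both strands, allowing overlaps, and were in 0 of the 11. Dagla had no window in the table.

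On GRCm39, with GENCODE vM39, the genes lie apart from each other on 6 chromosomes. Cnr1 (ENSMUSG00000044288) is at chr4:33922982-33948836 on the plus strand and Faah (ENSMUSG00000034171) at chr4:115824342-115875423 on the minus strand. Dagla (ENSMUSG00000035735) is at chr19:10222629-10282320, minus, and Daglb (ENSMUSG00000039206) at chr5:143450236-143496130, plus. Mgll (ENSMUSG00000033174) is at chr6:88652108-88805342, plus, Abhd6 (ENSMUSG00000025277) at chr14:14411450-14468795, minus, Napepld (ENSMUSG00000044968) at chr5:21867688-21923575, minus, and Cnrip1 (ENSMUSG00000044629) at chr11:17001586-17068677, plus. The values below count reads over whole gene models, coding and noncoding transcripts alike.

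Within the 48 sorted libraries, Cnr1 was at 92.3 ± 27.0 CPM (SD), with libraries from 54.3 to 151. Mgll, the main 2-AG lipase of brain, was at 83.8 ± 22.9 CPM (39.1 to 133) and Dagla at 78.1 ± 17.8 CPM (45.1 to 119.7). Daglb was at 43.8 ± 5.53 CPM, Faah at 36.7 ± 9.35, Cnrip1 at 30.7 ± 6.77, Abhd6 at 26.5 ± 6.76 and Napepld at 8.03 ± 2.17. Daglb varied least in relation to its level, and Cnr1, Mgll and Napepld varied most.

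Between genes, levels were compared per length only, in TPM (transcripts scaled to a fixed sum). The order was Mgll at 85.3 ± 12.5 TPM, Dagla at 78.6 ± 35.6, Faah at 49.0, Cnrip1 at 44.5, Daglb at 28.6, Abhd6 at 24.9, Cnr1 at 23.3 and Napepld at 2.40. Among 35105 genes, these levels ran from percentile 93.2 for Mgll to 40.6 for Napepld. Several neighbours in this order traded places between libraries: Mgll was above Dagla in 28 of 48 libraries, Faah above Cnrip1 in 28, Daglb above Abhd6 in 29 and Abhd6 above Cnr1 in 28. Dagla was above Faah in 40, Cnrip1 above Daglb in 40 and Cnr1 above Napepld in 48. The TPM of these files rest on effective lengths that differ between libraries. The order changed when TPM were rebuilt with annotated lengths, an alternative chosen after seeing the data. There each transcript's counts were divided by its annotated length and scaled to the same fixed sum. On that scale Mgll at 59.96 ± 15.3 was followed by Cnrip1 at 49.6 ± 9.63, Cnr1 at 42.4, Dagla at 31.8, Faah at 30.2, Abhd6 at 27.3, Daglb at 24.7 and Napepld at 4.57. Mgll first and Napepld last held on both scales. Cnr1 moved from the seventh place to the third.

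**Figure D1:**
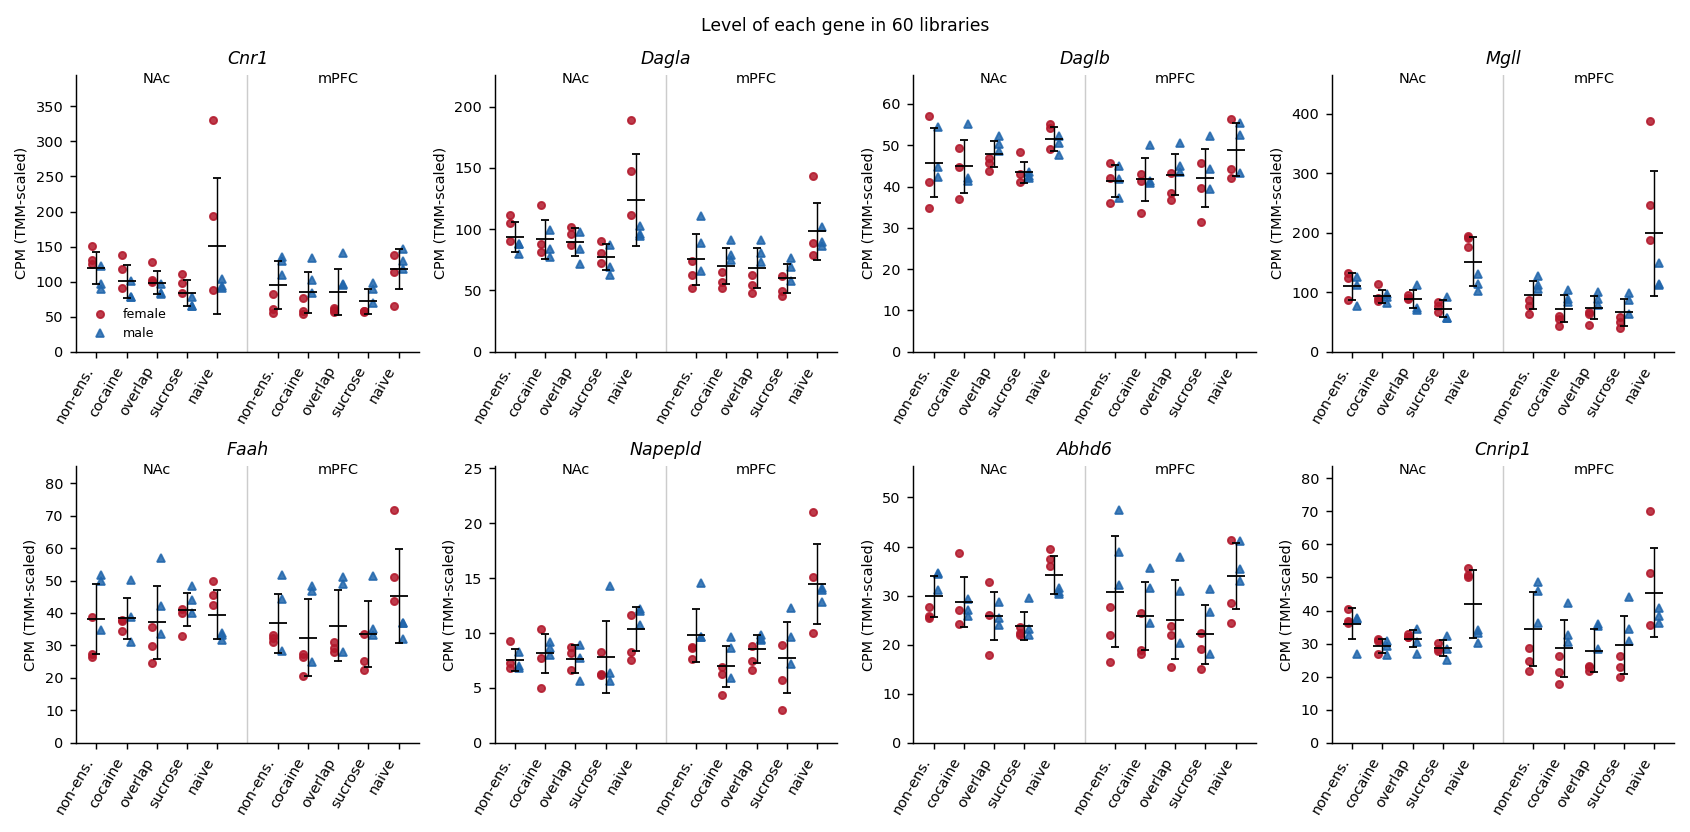
Levels of the 8 genes (CPM with TMM factors, linear axis from 0, 1 panel per gene) in all 60 libraries by region and population, with the mean and SD of each group of 6. In the NAc panels the sucrose-seeking points of Cnr1 (64.8 to 111) lie mostly below the non-ensemble points (89.3 to 151), while the points of Daglb overlap throughout.

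The question of the study's design was how cells active in cocaine seeking differ from cells active in sucrose seeking and from cells in neither, and each population was compared with the others in the same region. The clearest difference for the endocannabinoid genes was between the sucrose-seeking and the non-ensemble population of the NAc. There 5 of the 8 genes were lower in sucrose-seeking (Cnr1, Mgll, Cnrip1, Dagla and Abhd6) and 0 higher, by 1.24-fold to 1.55-fold, with both sexes fitted together in 24 libraries. With length-scaled counts, described further on, Dagla turned to higher (0.86) and Faah was called higher, so the direction of Dagla and the count of 0 higher hold for unscaled counts. Over all genes the same fit called 30.7% of 25150 genes, 17.2% lower and 13.5% higher, so the share of members called lower was above the background and calls in general were frequent. The median log2 difference was -0.33 over the 8 members and 0.19 over all genes.

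The receptor gene Cnr1 was at 89.3, 124 and 151 CPM (lowest, median and highest of 6 libraries) in non-ensemble and at 64.8, 80.7 and 111 CPM in sucrose-seeking cells of the NAc. By pool, the female libraries had 151, 130.1 and 125 CPM in non-ensemble and 98.1, 111 and 83.3 in sucrose-seeking, and the male libraries 123, 89.3 and 96.7 against 64.8, 65.8 and 78.2. In each sex every sucrose-seeking library was below every non-ensemble library. The difference was 1.47-fold, a log2 change of -0.55 ± 0.11 (SE), with an adjusted p of 0.00034 in edgeR's quasi-likelihood test. The receptor-binding protein's gene Cnrip1 was at 27.0, 37.2 and 40.4 CPM against 25.0, 28.3 and 32.4 CPM. The groups overlapped through a single low non-ensemble library, and the log2 change was -0.36 ± 0.10 (1.29-fold, edgeR adjusted p = 0.0072).

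Among the breakdown genes, Mgll had 76.5, 118 and 133 CPM in non-ensemble and 57.1, 72.2 and 91.8 CPM in sucrose-seeking. By pool the female libraries had 86.8, 133 and 124 CPM against 67.4, 83.7 and 76.9, and the male libraries 76.5, 111 and 126 against 57.1, 57.2 and 91.8. The pool's own non-ensemble library was the higher one each time, although the groups overlapped. On unscaled counts this was the largest change of the 8 genes, at -0.63 ± 0.14 on the log2 scale (1.55-fold, edgeR adjusted p = 0.00072), while with length-scaled counts it was -0.40 (0.060). Abhd6, a membrane lipase that cuts a smaller part of 2-AG, went from 25.4, 29.5 and 34.7 CPM to 22.0, 22.7 and 29.6 CPM, a log2 change of -0.36 ± 0.13 (edgeR adjusted p = 0.041). All sucrose-seeking libraries of Abhd6 but the highest lay below the non-ensemble range. Faah, the anandamide hydrolase gene, had 26.4, 36.8 and 51.6 CPM against 32.9, 40.5 and 48.2 CPM. Its groups overlapped fully, with a log2 change of 0.09 ± 0.15 (edgeR adjusted p = 0.68).

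Of the synthesis genes, Dagla, the main 2-AG synthase of the adult brain, had 79.4, 89.3 and 111 CPM in non-ensemble and 62.6, 76.4 and 89.97 CPM in sucrose-seeking. The groups overlapped in part, and the log2 change was -0.31 ± 0.10 (1.24-fold, edgeR adjusted p = 0.023), which turned to 0.86 ± 0.22 (0.0059) with length-scaled counts. Daglb had 34.9, 43.6 and 57.1 CPM against 41.0, 42.8 and 48.3 CPM, a log2 change of -0.11 ± 0.11 (edgeR adjusted p = 0.49). Napepld had 6.79, 7.13 and 9.31 CPM against 5.61, 6.28 and 14.3 CPM, a log2 change of 0.01 ± 0.22 (edgeR adjusted p = 0.99), and both pairs of groups overlapped.

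The 5 genes called were lower in sucrose-seeking in 6 of 6 pools each, while Daglb was lower in 3, Napepld in 4 and Faah in 2. With each pool left out in turn, Cnr1, Cnrip1 and Mgll were called in all 6 fits. All 5 genes were called without the female pool 2, which had the Y-linked RNA. Without the female pool 1 or the female pool 3 Dagla and Abhd6 were not called, leaving 3 genes, and without the male pool 2 or the male pool 3 Abhd6 was not called, leaving 4. Adjusted p over these fits ran from 0.00023 to 0.0034 for Cnr1, from 0.00012 to 0.010 for Mgll, from 0.0028 to 0.048 for Cnrip1, from 0.013 to 0.090 for Dagla and from 0.021 to 0.15 for Abhd6. With protein-coding genes alone, a setting chosen after seeing the data, Cnr1 (-0.48), Mgll (-0.55) and Cnrip1 (-0.28) were called against a background of 37.9% (20.4% lower), and Dagla and Abhd6 had adjusted p of 0.052 and 0.090.

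**Figure D2:**
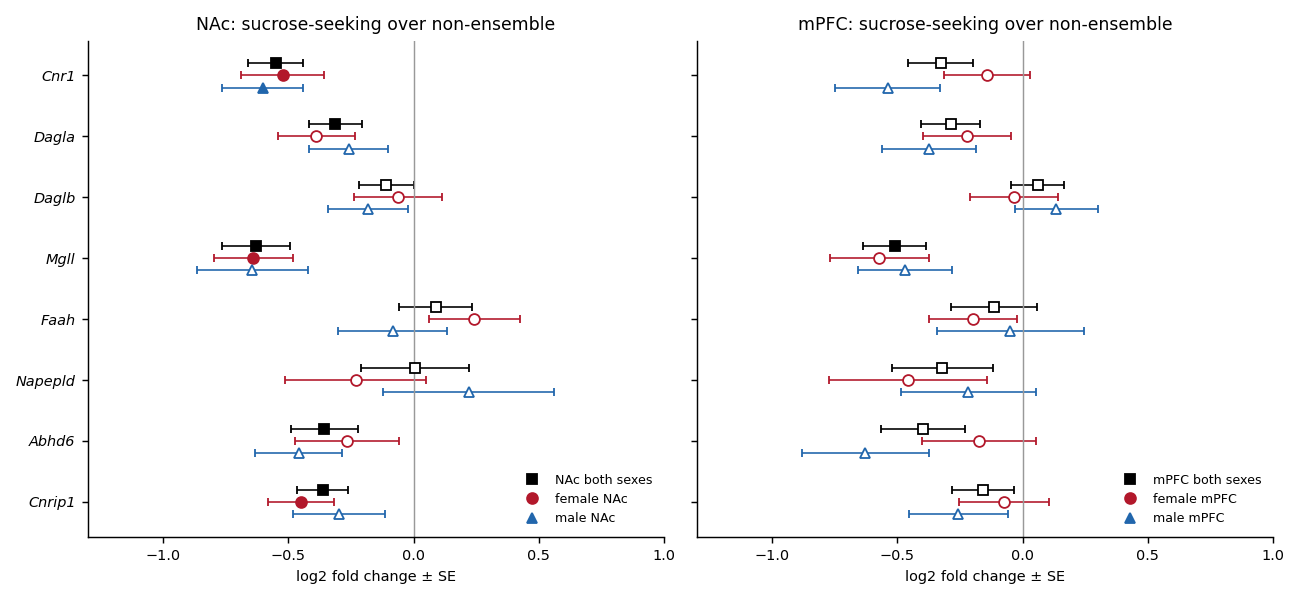
Log2 differences between sucrose-seeking and non-ensemble (x axis, with SE) for each of the 8 genes in the NAc and the mPFC, for both sexes together (squares), females (circles) and males (triangles), filled where edgeR's adjusted p was under 0.05. Cnr1, Mgll, Cnrip1, Dagla and Abhd6 lie left of 0 in the NAc and Daglb, Faah and Napepld lie near it.

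Other measures moved with this difference. The summed level of 5 neuronal markers was 2402, 2703 and 2903 CPM (lowest, median and highest) in NAc non-ensemble and 1756, 1947 and 2271 CPM in sucrose-seeking, and all 5 markers were called lower, with a median log2 change of -0.71. All 5 endothelial markers were called higher, with sums of 52.6, 70.8 and 92.3 CPM against 98.6, 209 and 247 CPM, and all 6 astrocyte markers lower. Pseudogenes took 3.05, 3.71 and 4.24% of counts in non-ensemble and 4.88, 6.89 and 7.71% in sucrose-seeking. The neuronal, endothelial and pseudogene ranges of the groups did not overlap. Over all 48 libraries, after the mean of each region and sex was taken off, the pseudogene share had a Pearson r with log2 CPM of -0.84 for Mgll, -0.76 for Dagla and Abhd6, -0.74 for Cnr1, -0.42 for Cnrip1, -0.30 for Napepld, -0.19 for Daglb and 0.06 for Faah. Those r values describe libraries that share pools and depth. The genes with the strongest r were among those called, and the part that cell make-up or RNA quality had in the differences was not tested. In sorted bulk samples, fewer cells of a type and less RNA per cell cannot be told apart.

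In the mPFC, 1 of the 8 genes was called lower in sucrose-seeking than in non-ensemble, Mgll, and 0 higher, against a background of 15.3% of 26861 genes (8.24% lower). Mgll had 63.6, 95.6 and 126 CPM in non-ensemble and 39.1, 60.4 and 98.0 CPM in sucrose-seeking. The groups overlapped widely, yet the sucrose-seeking library was the lower one in 6 of 6 pools, and the log2 change was -0.51 ± 0.13 (1.43-fold, edgeR adjusted p = 0.0064), called with each pool left out. Without the female pool 1 Cnr1 was called too. Cnr1 had 55.5, 96.1 and 135 CPM against 57.0, 64.2 and 97.8 CPM, lower in 5 of 6 pools, with a log2 change of -0.33 ± 0.13 (edgeR adjusted p = 0.089). Dagla (-0.29, adjusted p = 0.0998) and Abhd6 (-0.40 ± 0.17, adjusted p = 0.11) were lower in 6 of 6 pools without passing edgeR's threshold. Cnrip1 was at -0.16, Faah at -0.11, Napepld at -0.32 and Daglb at 0.06 on the log2 scale, with adjusted p from 0.32 to 0.77. DESeq2 called 4 of the 8 and limma-voom 1, counts that stand here without the share of all genes those methods called. With the pool as a block edgeR called 4: Mgll (-0.52, adjusted p = 1.7e-05), Dagla (-0.28, 0.0077), Cnr1 (-0.33, 0.010) and Abhd6 (-0.40, 0.0020), against a background of 26.7% (14.6% lower).

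The same measures moved in the mPFC. The sums of neuronal markers were 1515, 2025 and 2572 CPM in non-ensemble and 1073, 1539 and 1938 CPM in sucrose-seeking, with 5 of 5 markers called lower and a median log2 change of -0.65. Pseudogenes took 3.34, 5.16 and 9.46% of counts against 4.73, 8.66 and 12.1%, and 4 of 5 endothelial markers were called higher. Unlike in the NAc, the neuronal and pseudogene ranges of the mPFC groups overlapped. Their part in the Mgll difference was not tested.

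Within 1 sex, 6 libraries were compared in each region. In the female NAc, 3 genes were called lower, Cnr1 (-0.52 ± 0.17, adjusted p = 0.043), Cnrip1 (-0.45, 0.031) and Mgll (-0.64, 0.015), against a background of 15.9% (10.1% lower). In the male NAc it was Cnr1 alone (-0.60, 0.030), against 9.39% (6.56% lower). These calls rested on single libraries: in females 0 were called without the non-ensemble library 2 or 3 or the sucrose-seeking library 1 or 3, Mgll alone without the cocaine-seeking library 1 or the overlapping library 2 or 3, 2 genes without the non-ensemble library 1 or the cocaine-seeking library 3, and 4 without the sucrose-seeking library 2. In males 0 were called without any 1 of the 3 non-ensemble libraries or the sucrose-seeking library 1 or 2, and Mgll was added without the sucrose-seeking library 3. In the mPFC edgeR called 0 of 8 in either sex, with backgrounds of 0.025% in females and 0.205% in males. At an unadjusted p under 0.05 there were 1 in the female mPFC and 3 in the male mPFC, and DESeq2 and limma-voom also called 0 in each. With the pool as a block, which the shared source of the populations makes possible, edgeR called 4 genes lower in the female NAc (Cnr1, Cnrip1, Dagla and Mgll, background 26.4%, 15.7% lower), 3 in the male NAc (Cnr1, Mgll and Abhd6, 19.1%, 12.9% lower), Mgll in the female mPFC (13.8%, 8.96% lower) and Cnr1, Mgll, Dagla and Abhd6 in the male mPFC (17.2%, 9.96% lower). These counts do not show that the sexes or regions differed. The difference itself, added after seeing the data and fitted over all 48 libraries, was called by edgeR for 0 of 29788 genes between NAc and mPFC (1622 at an unadjusted p under 0.05) and for 0 between females and males (1156), with 0 members at an unadjusted p under 0.05 in each. With the block edgeR also called 0 genes in both differences (1965 and 1275 at an unadjusted p under 0.05), and 0 members were at an unadjusted p under 0.05. For Cnr1 the NAc effect minus the mPFC effect was -0.18 ± 0.18 and the female minus the male effect 0.21 ± 0.18. Over the mean of both regions and sexes, Mgll (-0.60 ± 0.11, edgeR adjusted p = 2.1e-05), Cnr1 (-0.47 ± 0.09, 9.8e-05), Dagla (-0.33 ± 0.09, 0.0033), Abhd6 (-0.40 ± 0.12, 0.0060) and Cnrip1 (-0.29) were lower, against a background of 34.1% (16.5% lower).

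The cocaine-seeking and overlapping populations lay between the other populations for Cnr1 and Mgll in the NAc. Cnr1 had 77.6, 96.0 and 138 CPM in cocaine-seeking and 81.7, 97.9 and 128 CPM in overlapping cells, and Mgll had 81.0, 90.8 and 113 CPM and 70.7, 89.4 and 112 CPM. These ranges overlapped with those of both non-ensemble and sucrose-seeking. In edgeR's test 0 members were called in the NAc for cocaine-seeking against non-ensemble (background 0.322%, 2 members at an unadjusted p under 0.05), overlapping against non-ensemble (4.89%, 2 members), cocaine-seeking against sucrose-seeking (7.52%, 4 members) and cocaine-seeking against overlapping (0%, 0 members). These comparisons share libraries, so their values are given side by side only.

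For cocaine-seeking against non-ensemble the lowest adjusted p was that of Cnrip1, with 26.5, 30.1 and 31.3 CPM against 27.0, 37.2 and 40.4 CPM. It was lower in 6 of 6 pools, with a log2 change of -0.29 ± 0.10 and an edgeR adjusted p of 0.16. For overlapping against non-ensemble Cnr1 was at -0.27 (adjusted p = 0.13) and Mgll at -0.30 (0.17). Against sucrose-seeking, Mgll (0.40 ± 0.14, adjusted p = 0.069), Cnr1 (0.31 ± 0.11, 0.084) and Dagla (0.29, 0.089) were near the threshold. Cnr1 and Mgll were higher in cocaine-seeking in 6 of 6 pools. DESeq2 called these 3 genes and limma-voom called Mgll, and edgeR without the male pool 3 called Mgll and Dagla. The share of all genes called in those 3 settings is not given here, so these calls have no background beside them.

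Since the 4 populations with 1 number came from the same pool of mice, edgeR was also fitted with the pool as a block. In the NAc it then called 12 of the 40 member tests in place of 5. Cocaine-seeking was lower than non-ensemble for Cnr1 (-0.25, adjusted p = 0.029) and Cnrip1 (-0.28, 0.030), with a background of 11.2% (6.59% lower). Cocaine-seeking was higher than sucrose-seeking for Mgll (0.42, 0.00069), Cnr1 (0.30, 0.0054) and Dagla (0.28, 0.0088), with a background of 16.9% (11.4% higher). Overlapping was lower than non-ensemble for Mgll (-0.30, 0.013) and Cnr1 (-0.27, 0.014), with a background of 18.2% (10.7% lower). Without and with the block, the 5 genes named above were lower in sucrose-seeking than in non-ensemble, with a background of 36.5% (19.6% lower) with it. Of the 6 microglial markers 4 were higher in cocaine-seeking and 6 in overlapping than in non-ensemble, and of the 5 neuronal markers 0 and 3 were lower, in the fit without the block. Their part in these calls was not tested.

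In the mPFC, Mgll had 43.8, 72.0 and 103 CPM in cocaine-seeking and 45.3, 72.2 and 100.3 CPM in overlapping cells, against 63.6, 95.6 and 126 CPM in non-ensemble. The ranges overlapped, and in 6 of 6 pools both populations were below the non-ensemble library of their pool. The log2 change was -0.39 ± 0.13 for cocaine-seeking (edgeR adjusted p = 0.10) and -0.35 for overlapping (0.14), with backgrounds of 0.302% and 1.3%. In these comparisons edgeR called 0 members, with 2 and 1 at an unadjusted p under 0.05. DESeq2 called Mgll in both, given here without the share of all genes it called. With the pool as a block Mgll was called at -0.40 (adjusted p = 0.0011, background 16.5%, 10.4% lower) and -0.35 (0.0033, background 15%, 9.31% lower). Cocaine-seeking did not pass the threshold for any member against sucrose-seeking (background 0.8%) or overlapping (0%) in edgeR's test, with 0 members at an unadjusted p under 0.05 in each. Against non-ensemble, 0 of 5 neuronal markers were called by edgeR in either population of the mPFC and 2 and 3 of 5 oligodendrocyte markers were lower, while 5 of 6 microglial markers were higher in cocaine-seeking and in overlapping than in non-ensemble, with summed levels of 98.7, 116 and 141 CPM in non-ensemble, 182, 241 and 303 CPM in cocaine-seeking and 244, 311 and 392 CPM in overlapping. Their part in the Mgll values was not tested.

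The way reads were scaled decided the direction for Dagla. When counts were rebuilt from TPM and average lengths (length-scaled counts), Dagla in the NAc changed from -0.31 ± 0.10 to 0.86 ± 0.22 on the log2 scale (edgeR adjusted p = 0.0059) for sucrose-seeking against non-ensemble. Faah became called as higher (0.72 ± 0.22, 0.020), and Cnr1 (-0.73, 0.023), Cnrip1 (-0.54, 0.020) and Abhd6 (-0.53, 0.033) stayed lower, while Mgll was at -0.40 (0.060). In that setting 20.7% of all genes were called, and in the mPFC 0 members were called by edgeR. The effective length that the authors' Salmon run gave to the coding transcript of Dagla (ENSMUST00000039327), of 5634 bases, averaged 1028 bases in sucrose-seeking and 2771 bases in non-ensemble libraries of the NAc. It was shorter in 6 of 6 pools, by -1.54 ± 0.41 on the log2 scale (mean and SD). For Mgll-207 it was 1176 against 2306 bases, -0.97, and for Faah-201 -0.85, each shorter in 6 of 6 pools. For the main coding transcripts of Cnr1 and Cnrip1 it was 0.10 and -0.07. So the TPM of Dagla, 43.7 ± 10.3 in NAc non-ensemble and 94.996 ± 33.2 in sucrose-seeking, went the other way from its CPM. Which scale is nearer to the RNA in the cells was not tested.

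**Figure D3:**
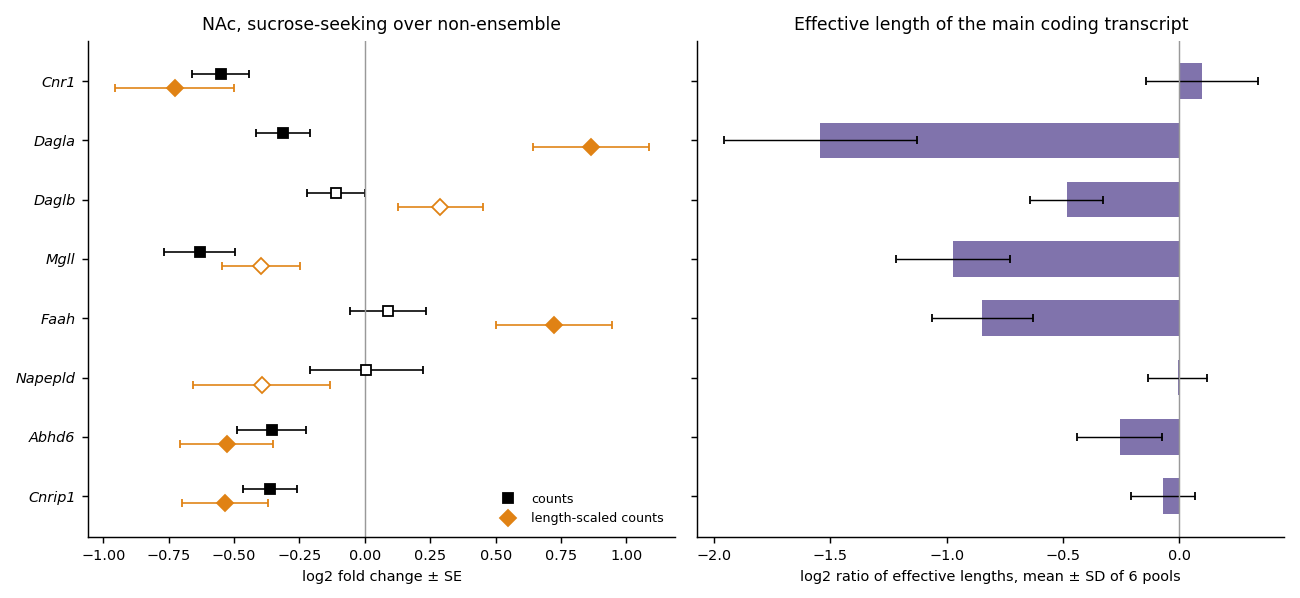
Left, log2 differences between sucrose-seeking and non-ensemble in the NAc from counts and from length-scaled counts (x axis, with SE) for the 8 genes, and right, the log2 difference in effective length of each gene's main coding transcript (bars, mean and SD of 6 pools). Dagla moves from -0.31 to 0.86, and its effective length has the longest bar, -1.54.

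The make-up of the counts by transcript type also differed. Coding transcripts held 100% of counts for Napepld and Abhd6, 97.7% for Mgll, 96.8% for Cnr1 and 94.9% for Dagla over the sorted libraries, but 85.1% for Cnrip1, 67.4% for Daglb and 36.8% for Faah, whose other counts fell on retained-intron transcripts and on transcripts with no defined coding sequence. By TPM, the retained-intron transcript Faah-206 held 28.8% of Faah and the coding Faah-201 held 21.1%. The noncoding Cnr1-203, of 757 bases, held 43.0% of Cnr1's TPM but 3.22% of its counts, so the level of Cnr1 in TPM above rests partly on it. Mgll was spread over Mgll-207 (41.1%), Mgll-204 (23.4%) and Mgll-201 (10.6%), and Dagla-201 held 92.5% of Dagla.

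For Faah the coding share of counts in the NAc was 54.2 ± 11.7% (SD, n = 6) in non-ensemble and 25.5 ± 8.8% in sucrose-seeking, lower in 6 of 6 pools. Its coding counts were at 21.5 ± 9.9 and 10.2 ± 3.3 CPM, while the sum over all its transcripts was at 38.2 and 41.0 CPM. In the mPFC the share was 37.7 ± 14.95% against 25.6 ± 9.1%, lower in 5 of 6 pools. For Daglb the NAc share was 76.4 ± 7.4% against 61.6 ± 6.5%, lower in 6 of 6 pools, and for Cnrip1 91.8 ± 5.0% against 79.8 ± 3.7%, lower in 5 of 6. These shares are a description with no test. They rest on how Salmon divides reads among overlapping transcripts, and the share of counts on pseudogenes differed between the same groups.

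**Figure D4:**
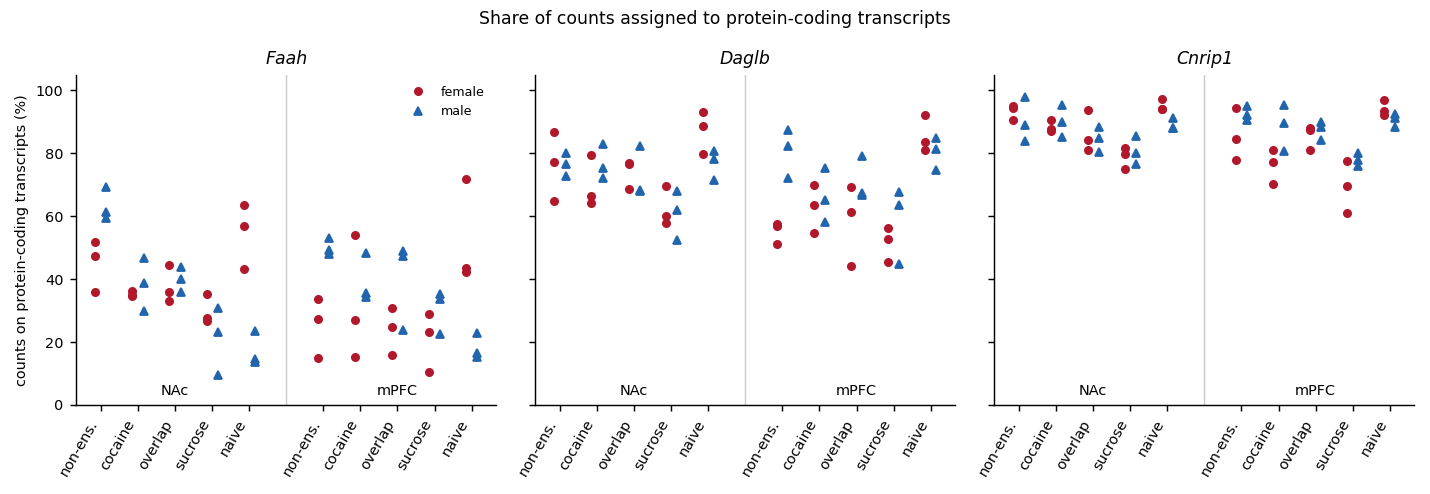
Percent of a gene's counts on transcripts with a coding sequence (y axis, 0 to 100) for Faah, Daglb and Cnrip1 in each library by region and population. Faah in NAc sucrose-seeking (mean 25.5%) sits below non-ensemble (mean 54.2%).

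The regions were compared over the mean of the 4 sorted populations in each sex. In females 7 of the 8 genes were higher in the NAc than in the mPFC, against a background of 62.4% of genes called (28.5% higher), and in males 0 were higher and 2 lower, against 8.81% (4.01% lower). The median log2 difference in females was 0.48 over the members and -0.43 over all genes. That fit counts the 4 populations of a pool as separate libraries, so its p-values are too small, and the values with the populations of a pool summed, which were added after seeing the data, stand beside them.

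Cnr1 had 83.3, 114 and 151 CPM (lowest, median and highest of 12) in NAc libraries of females and 54.3, 58.5 and 82.4 CPM in the female mPFC, with no overlap. The difference was 1.95-fold (log2 0.96 ± 0.09, edgeR adjusted p = 2.0e-11), and 1.07 ± 0.17 with pools summed (0.0005). In males Cnr1 had 64.8, 82.4 and 123 CPM in the NAc and 70.0, 100.2 and 140.2 CPM in the mPFC. Those ranges overlapped almost fully, with a log2 difference of -0.28 ± 0.09 (adjusted p = 0.049). Cnrip1 had 26.9, 31.6 and 40.4 CPM against 17.9, 22.9 and 28.6 CPM in females, and 25.0, 29.9 and 37.8 CPM against 28.4, 35.6 and 48.6 CPM in males. The female ranges shared only 26.9 to 28.6, with a log2 difference of 0.54, and the male difference was -0.25 (adjusted p = 0.045).

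Among the enzymes, Dagla had 72.2, 90.3 and 119.7 CPM in the female NAc against 45.1, 55.6 and 73.7 CPM in the female mPFC, a log2 difference of 0.79 ± 0.09 (edgeR adjusted p = 8.6e-10). Mgll had 67.4, 89.2 and 133 CPM against 39.1, 59.4 and 86.6 CPM, a log2 difference of 0.76 ± 0.11 (1.1e-07). The ranges of Dagla shared only 72.2 to 73.7 and those of Mgll more. Abhd6 (0.42 ± 0.12, adjusted p = 0.0024), Faah (0.33 ± 0.12, 0.015) and Daglb (0.23 ± 0.08, 0.011) were higher too, and Napepld was at 0.22 ± 0.16 (0.21). In males Dagla was at 0.08 and Mgll at -0.08.

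With pools summed, 5 of 8 were called higher in females (Cnr1, Dagla, Mgll, Cnrip1 and Abhd6, background 41.9%, 24.2% higher). In males edgeR called 0, with 0 members at an unadjusted p under 0.05 and a background of 1.89%. With single pools left out of the fit on 48 libraries, 5 to 7 genes were called in females and 0 to 2 in males. Daglb and Faah were not called in females without the female pool 1, the female pool 2 or the male pool 3, and 0 genes were called in males without the female pool 1, the female pool 3 or the male pool 1. Without the male pool 2, whose mPFC libraries had little Slc17a7, Cnrip1 alone was called in males, and without the male pool 3 Cnr1 alone. Over the mean of both sexes 6 genes were higher, against a background of 48.5% (24.2% higher). With protein-coding genes alone, 4 genes were called in females (Cnr1, Dagla, Mgll and Cnrip1, background 69.6%, 31.6% higher). With length-scaled counts Dagla was lower in the female NAc than in the female mPFC (-0.42, adjusted p = 0.032).

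The difference between the sexes in the region effect was called by edgeR for 5 genes over 48 libraries: Cnr1 (1.24 ± 0.13, adjusted p = 5.1e-08), Mgll (0.84 ± 0.15, 5.2e-05), Cnrip1 (0.79 ± 0.11, 5.1e-06), Dagla (0.72 ± 0.13, 4.5e-05) and Abhd6 (0.54 ± 0.16, 0.0084), each as female minus male, against a background of 38.7% (22.7% higher). For Dagla this held for unscaled counts, and with length-scaled counts it was -0.54 (adjusted p = 0.083). With pools summed edgeR called 0 of 31794 genes, 9939 of them at an unadjusted p under 0.05. Of the members 5 were at an unadjusted p under 0.05, and Cnr1 was at 1.34 ± 0.24 (adjusted p = 0.093). Adding the pool number as a block to those sums called 3 members (Cnr1, Cnrip1 and Mgll, background 3.99%, 3.75% higher). That block pairs the regions by number. With group means subtracted, NAc and mPFC libraries sharing a number had a mean r of 0.212 in females and -0.018 in males. For other numbers it was -0.106 and 0.009, so in males the numbers showed no likeness between regions. In the fit on 48 libraries Abhd6 was not called without the male pool 1 or the male pool 2, and the other 4 were called with any 1 pool left out.

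Neuronal RNA moved with the female region difference. The summed level of the neuronal markers was 1756, 2387 and 2770 CPM in NAc libraries of females and 1073, 1519 and 1959 CPM in their mPFC libraries, and 5 of 5 markers were called higher. In males the sums were 1934, 2338 and 2903 CPM against 1672, 2059 and 2708 CPM, with 2 of 5 called higher. Pseudogenes took 3.05 to 7.15% of counts in the female NAc and 6.14 to 12.1% in the female mPFC, and 3.47 to 7.71% and 3.34 to 8.73% in males. The regional markers described above and the Ddx3y level of the female pool 2 bear on the same libraries. The part of all these in the region differences was not tested.

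**Figure D5:**
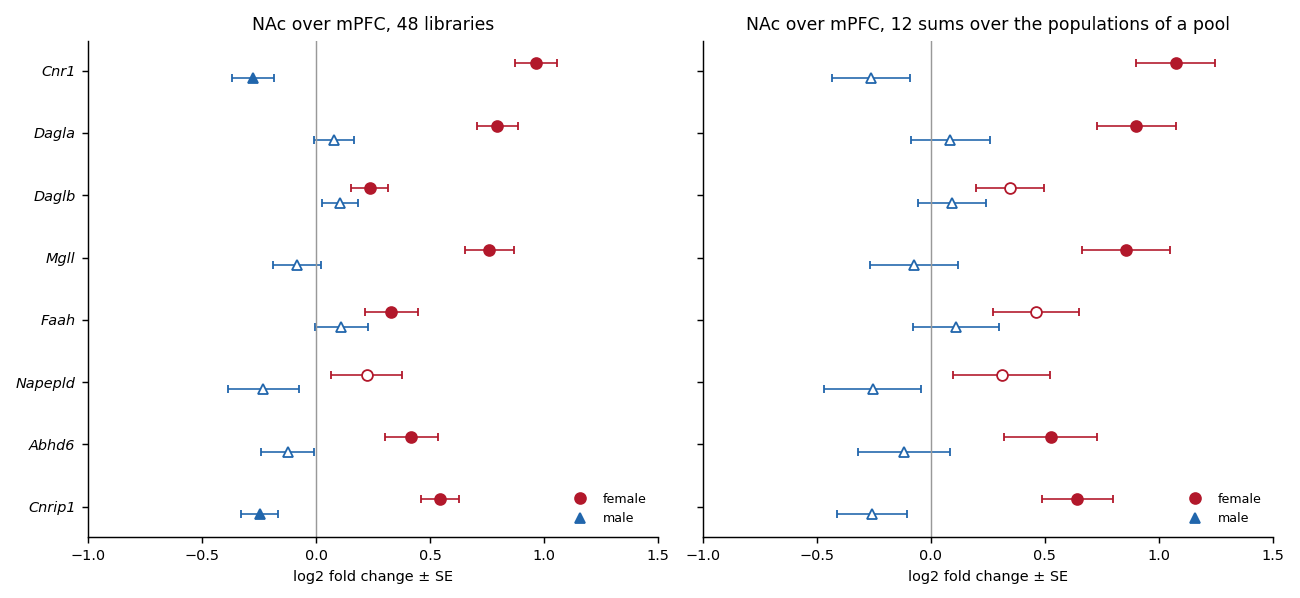
Log2 differences between NAc and mPFC (x axis, with SE) for the 8 genes in females and males, from 48 libraries and from 12 sums over the populations of a pool, filled where edgeR's adjusted p was under 0.05. The female points of Cnr1, Dagla, Mgll and Cnrip1 lie right of 0 in both settings. From 48 libraries the male points of Cnr1 (-0.28) and Cnrip1 (-0.25) lie left of 0 and are filled. Those of Dagla (0.08) and Mgll (-0.08) lie near 0.

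The naive libraries were compared with non-ensemble over both sexes. In the NAc edgeR called 0 of 8 (background 15.7%), with Dagla (0.24) and Mgll (0.29) at an unadjusted p under 0.05, and DESeq2 and limma-voom called 0. In the mPFC 1 was called higher in naive, Mgll, against a background of 30% (11.3% higher). Mgll had 112, 168 and 388 CPM (lowest, median and highest of 6) in naive and 63.6, 95.6 and 126 CPM in non-ensemble of the mPFC. The ranges overlapped slightly, and the log2 difference was 0.83 ± 0.26 (1.78-fold, edgeR adjusted p = 0.028). The naive females had 246, 388 and 188 CPM and the naive males 112, 148 and 113 CPM. Without the female number 1, 2 or 3 or the male number 2 the call was lost, and without the male number 1 Napepld was called too. Cnr1 in naive NAc libraries ranged from 88.6 to 330.05 CPM, with 88.6, 194 and 330.05 in females (in rising order) and 91.4 to 104 in males. The male naive files were written with more decimals than the female naive and the sorted files. All naive files held more counts than the sorted ones, and the naive libraries had other effective lengths. Cell markers differed as well. In the female mPFC Slc17a7 was at 522, 819 and 616 CPM in naive and 84.5, 29.0 and 88.1 CPM in non-ensemble. In the male mPFC it was at 202, 229 and 213 CPM against 380, 36.7 and 662 CPM. The part of this in the Mgll difference was not tested. Being naive and these differences between the files and libraries cannot be told apart.

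Of 40 other genes of the pathway in 6 lists, all tested, 2 were higher and 17 lower in NAc sucrose-seeking than in non-ensemble, with a median log2 change of -0.24, where the same fit called 30.7% of all genes (17.2% lower) with a median of 0.19. In the mPFC 1 was higher and 11 lower with a median of -0.13, where the fit called 15.3% of all genes (8.24% lower) with a median of 0.09. Among the carriers, which move lipids inside the cell, 4 of 4 were lower in the NAc, with Scp2 at -0.82 ± 0.13, Fabp3 at -0.79 and Fabp5 at -0.44. Of the coupling partners of CB1, 5 of 7 were lower, among them the inhibitory G protein genes Gnai1 (-0.74) and Gnai2 (-0.60) and the arrestin gene Arrb1 (-0.45). Of the receptors and G proteins that drive 2-AG synthesis 3 of 6 were lower, Gna11 (-0.71), Gnaq (-0.57) and the muscarinic receptor gene Chrm1 (-0.43).

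Of the other synthesis genes 4 of 11 were lower in the NAc, with Gde1 at -0.70, Abhd4 at -0.59 and Plcb1 at -0.42, and of the other breakdown genes 1 of 5, Abhd12 (-0.68), which encodes another 2-AG lipase. The genes called higher in the NAc were both other receptors for cannabinoid-like lipids, Gpr18 (1.46) and Gpr119 (1.91), and the other 5 receptors of that list were not called. Olfactory, vomeronasal and taste receptor genes took 1.04 to 1.98% of counts in NAc non-ensemble and 2.09 to 4.00% in NAc sucrose-seeking. The part of this shift in the 2 calls was not tested. In the mPFC the lists gave 3 of 4 carriers, 2 of 7 coupling partners, 2 of 6 drivers of 2-AG synthesis, 3 of 11 synthesis genes and 1 of 5 breakdown genes lower, and Gpr18 (1.25) higher, to be read beside the 8.24% of all genes called lower there. For cocaine-seeking against non-ensemble in the NAc, 1 of 40 was called, Inpp5d (0.76), against 0.322% of all genes. Inpp5d was also called higher than in non-ensemble in overlapping (1.13 in the NAc, 0.91 in the mPFC) and in mPFC cocaine-seeking (0.64). Most microglial markers were higher in the same comparisons, as given above, and their part in the Inpp5d calls was not tested. Between regions in females 21 of 40 were higher in the NAc and 10 lower, with a median of 0.33, where the fit called 62.4% of all genes (28.5% higher) with a median of -0.43, and in males 3 were higher and 5 lower, where it called 8.81%.

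Among the members, log2 CPM over the 48 libraries, after the mean of each region and sex was taken off, had a Pearson r of 0.72 between Cnr1 and Dagla, 0.68 between Cnr1 and Abhd6 and 0.67 between Dagla and Abhd6. Between Mgll and Faah r was 0.01 over both regions, with -0.53 in the NAc alone and 0.48 in the mPFC alone. The 5 genes of at least 10 CPM most like Cnr1 by the same measure, among 11385, were Srebf2 (r = 0.87), Atn1 (0.85), Scn2a (0.84), Sorl1 (0.84) and Lrp11 (0.84). Lrp11 was also among the top 5 in the NAc alone, and Srebf2 and Sorl1 in the mPFC alone. The libraries share pools and differ in neuronal RNA: the summed neuronal markers had an r of 0.79 with Cnr1, 0.69 with Abhd6, 0.67 with Dagla, 0.66 with Mgll and 0.31 with Daglb.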

How the data were processed

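RNA was measured in 60 libraries, 48 of them from sorted NeuN-positive populations and 12 named naive, which the labels and methods leave undefined. They were made with a SMART-seq kit after ribosomal depletion and sequenced in 150-base pairs. Reads were trimmed (cutadapt) and assigned to GRCm39 transcripts (Salmon) by the authors (tool versions: not given in the sources used here). FastQC and DESeq2 are also named in the submitters' processing notes. The deposited files give, per transcript, the estimated counts and the TPM of the authors' Salmon run, with effective lengths.

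Estimated counts were summed per gene with GENCODE vM39 and rounded to whole numbers. Of 117209 transcripts 116085 matched, and the other 1124, left out, held 2.23 to 7.10% of counts in sorted and 0.932 to 3.12% in naive libraries. Software was edgeR 4.0.16, DESeq2 1.42.0 and limma 3.58.1 under R 4.3.3. The main test was edgeR's quasi-likelihood test with TMM factors and filterByExpr, with Benjamini-Hochberg adjustment over all genes and a threshold of 0.05, and was tested on simulated counts first. Regions were fitted on their own for the populations and together for the regions. CPM carry TMM factors, except sums over markers and the levels of Rbfox3, Fos, Ddx3y, Slc17a7 and Adora2a, which do not. Standard errors of log2 changes are the change over the square root of the F statistic.

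Groups follow the sample titles. The description field named another group than the title in 30 libraries, and the sex label in 2. Populations of 1 number come from the same pool by the sorting design. With each population's mean subtracted, libraries sharing a number had a mean r of 0.316 in the female NAc, 0.353 in the female mPFC, 0.229 in the male NAc and 0.438 in the male mPFC, and the pool as a block was an alternative, as were DESeq2, its size factors, limma-voom, no filter, length-scaled counts, stricter thresholds and leaving out pools. The members and lists were chosen with earlier results of these data known. All 8 members are named, and from each other list at most 3 genes, those lowest in adjusted p below 0.05.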

Additional observations from a re-analysis of the deposited data

Results flagged for a closer look

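A single library stood far from the other 5 of its region and population in 7 of 80 groups of 6 tested with Dixon's criterion, which chance alone meets in about 1 group in 20. Abhd6 was at 38.7 CPM in the female NAc cocaine-seeking library 2, where the next was at 29.3, and at 29.6 CPM in the male NAc sucrose-seeking library 1, where the next was at 23.7. Cnrip1 was at 27.0 CPM in the male NAc non-ensemble library 3, where the next was at 36.3. Dagla was at 144 CPM in the female mPFC naive library 2, where the next was at 102. Daglb was at 48.3 CPM in the female NAc sucrose-seeking library 2, where the next was at 43.5. Napepld was at 14.3 CPM in the male NAc sucrose-seeking library 1, where the next was at 8.27, and at 14.5 CPM in the male mPFC non-ensemble library 1, where the next was at 9.65.

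The effect of region differed between the sexes in edgeR's test over 48 libraries. The female minus the male log2 difference between NAc and mPFC was 1.24 for Cnr1, 0.84 for Mgll, 0.79 for Cnrip1, 0.72 for Dagla (-0.54 with length-scaled counts) and 0.54 for Abhd6. With the populations of a pool summed, 0 genes were called.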

How the results depend on the processing

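Values of single members under the alternatives were tallied for sucrose-seeking against non-ensemble, NAc against mPFC and naive against non-ensemble. Of these, 1371 stayed on their side of the threshold, 27 passed it newly and 123 no longer passed it. Another 6 turned direction with a call in the main or the alternative fit. Changes of direction where neither fit made a call are counted among the 1371. All 6 turned under length-scaled counts: Dagla to 0.86 (sucrose-seeking against non-ensemble, NAc), and for NAc against mPFC Dagla to -0.15 and Daglb to -0.048 (mean of both sexes), Dagla to -0.42 and Daglb to -0.12 (females), and Dagla to -0.54 (female minus male). The cause was not tested, though that scaling divides by the effective lengths given in the report.

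Counts of called member tests moved by over 1.5 times as follows. For the population comparisons (40 member tests each), the NAc with both sexes had 5, with 8 by DESeq2, 12 with the pool as a block and 3 with protein-coding genes alone. The mPFC had 1, with 3 under DESeq2's size factors, 6 by DESeq2, 6 with the block and 0 length-scaled. The female NAc had 3, with 5 with the block and 0 length-scaled, and the male NAc 1, with 2 by DESeq2, 3 with the block and 0 length-scaled. The female and male mPFC had 0, with 3 and 4 with the block. For NAc against mPFC, the mean of the sexes had 6 of 8, with 3 under size factors, no filter, DESeq2, length-scaled counts, protein-coding genes alone and pools summed with or without the block. Females had 7, with 4 with protein-coding genes alone. Males had 2, with 1 by limma-voom and 0 length-scaled or with pools summed, with or without the block. The female minus male difference had 5, with 0 with pools summed and 3 with the block on the sums. Naive against non-ensemble in the mPFC had 1, with 3 length-scaled and 0 with the replicate block (the source of the naive mice is not stated, so there the numbers may pair nothing). At the study's own thresholds (adjusted p under 0.01 and a log2 change over 0.75), females between regions and the female minus male difference had 3 each, and the other comparisons named here had 0. Protein-coding genes alone and pools summed were chosen after seeing the data. The member counts of this paragraph stand without the share of all genes that each setting called, so a more liberal setting cannot be told from a change in the members. In the mPFC the split of all genes between sucrose-seeking and non-ensemble, 1907 higher and 2214 lower, became 1422 and 3011 under DESeq2's size factors.

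With 1 pool or library left out at a time, counts ran from 3 to 6 (NAc, both sexes), 1 to 2 (mPFC, both sexes), 0 to 4 (female NAc), 0 to 2 (male NAc), 0 to 0 (female and male mPFC), 3 to 6 (region, mean), 5 to 7 (region, females), 0 to 2 (region, males), 4 to 5 (female minus male), 0 to 0 (naive, NAc) and 0 to 2 (naive, mPFC). Napepld had the fewest counts of the members, 56 to 216 per sorted library, and the widest standard errors between sucrose-seeking and non-ensemble in both regions.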
